A study of Mus musculus with 6 samples.

Results

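Cells with basophil transcripts were rare in cultures of bone marrow-derived dendritic cells (BM-DCs), and the 69 cells described here were chosen by such transcripts. Some of the 69 also held many transcripts of other cell types, as given below. Barcodes with at least 300 detected genes, fewer than 100000 unique molecular identifiers (UMIs, counts of single captured transcripts) and less than 10% mitochondrial UMIs were kept. A kept cell was called a member when it held UMIs of at least 3 of 7 marker genes: the proteases Prss34, Mcpt8 and Cpa3, the IgE receptor chains Fcer1a and Ms4a2, the receptor Cd200r3 and the transcription factor Gata2. The rule found 29 members among 7257 untreated cells and 40 among 8825 VD3 stimulated cells, which is 69 of 16082 kept cells in these 2 libraries and of 35083 in all 6 libraries of the series.

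Both cultures with members were grown from wild-type C57BL/6J bone marrow in medium with granulocyte-macrophage colony-stimulating factor (GM-CSF), and suspension cells were taken. The untreated culture received nothing further, and the VD3 culture received calcitriol, the active form of vitamin D3, at 1e-06 M for 24 h from day 7. The Ndrg2-KO culture was grown the same way and nucleofected with Cas9 ribonucleoprotein carrying 3 guides against Ndrg2, while the untreated and VD3 cultures were not nucleofected. The other 3 libraries were digested splinted skin wounds of mice covered with hydrogels that carried control DCs, Ndrg2-KO DCs or no cells. The sample label calls these control DCs untreated, whereas the study describes control DCs nucleofected with Cas9 and 3 non-targeting guides. The study's methods give 5 mice per group for the wounds, and the number of mice behind each culture was not given in the sources used here. Each condition was 1 library, so differences between conditions had no replicate check, no p-value is given, and every interval below covers counting error only.

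Basophils are rare granulocytes that develop in the bone marrow from progenitors under the transcription factors GATA2 and C/EBPα, and interleukin 3 expands them. They display the high-affinity IgE receptor FcεRI, whose crosslinking releases histamine and lipid mediators, and they secrete interleukin 4 and interleukin 13 together with granule proteases. Mast cells share this receptor and several granule genes but are tissue cells that depend on the receptor KIT and carry tryptases and chymases, and eosinophils carry major basic protein and eosinophil peroxidase.

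The 2 libraries held 136905324 UMIs (untreated) and 124731240 UMIs (VD3), of which members contributed 621101 and 566723. Members had a median of 14734 UMIs per cell in the untreated library, with a range from 914 to 91725, against 15807 for the other cells. In the VD3 library the member median was 8413, with a range from 3579 to 51985, against 12092. The median mitochondrial share was 4.41% in untreated and 4.14% in VD3 members, against 5.31% and 5.61% in the other cells. The kept cells of the 2 libraries shared 15 barcodes, none of them a member's. Some member barcodes also carried many UMIs of the major histocompatibility complex (MHC) class II invariant chain gene Cd74. These were 6 untreated barcodes, which held 45.7% of the untreated member UMIs, and 8 VD3 barcodes, which held 36.4%. Some results are also given without them. The stricter set, drawn up after their values had been seen, kept members with at least 4 markers and fewer than 20 Cd74 UMIs and held 23 untreated and 30 VD3 cells.

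The share of kept cells that were members was 0.400% in the untreated library (95% exact Clopper-Pearson interval 0.268 to 0.573) and 0.453% in the VD3 library (0.324 to 0.617), and the intervals overlapped. After every cell was drawn down to 2000 UMIs, which left out 472 untreated and 1149 VD3 cells below that depth, 24 of 6785 untreated cells (0.354%, 0.227 to 0.526) and 34 of 7676 VD3 cells (0.443%, 0.307 to 0.618) still met the rule. The Ndrg2-KO library had 0 members among 7969 kept cells, with an upper 95% exact Clopper-Pearson limit of 0.0463%. Its total of 162369979 UMIs was the highest of the 3 culture libraries, and its cells had a median of 16316 UMIs.

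Because the rule used them, the counts of markers per cell describe the members. In the untreated library 6805 cells held none of the markers, 406 held 1, 17 held 2 and none held 3. One untreated cell held 4 and the remaining 28 held between 5 and 7. In the VD3 library 8644 cells held none, 136 held 1 and 5 held 2, while 3 cells held 3, 2 held 4 and 35 held between 5 and 7. Members with 5 to 7 markers carried a median of 255.5 marker UMIs in the untreated library (27 to 876) and 160 in the VD3 library (18 to 630). The 17 untreated cells just outside the rule carried a median of 3 marker UMIs, and 11 of them met 2 markers through Gata2 and Cd200r3, the markers that other cells also contained. The 3 VD3 cells just inside the rule carried 6, 20 and 24 marker UMIs and were deep, with 30970 to 51985 UMIs each, and none of the 3 held Prss34, Ms4a2 or Fcer1a. Just outside the rule, 1 VD3 cell with 2 markers also carried 24 marker UMIs, 22 of them Prss34, in 2566 UMIs, so the VD3 library had no gap at the limit.

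**Figure D1:**
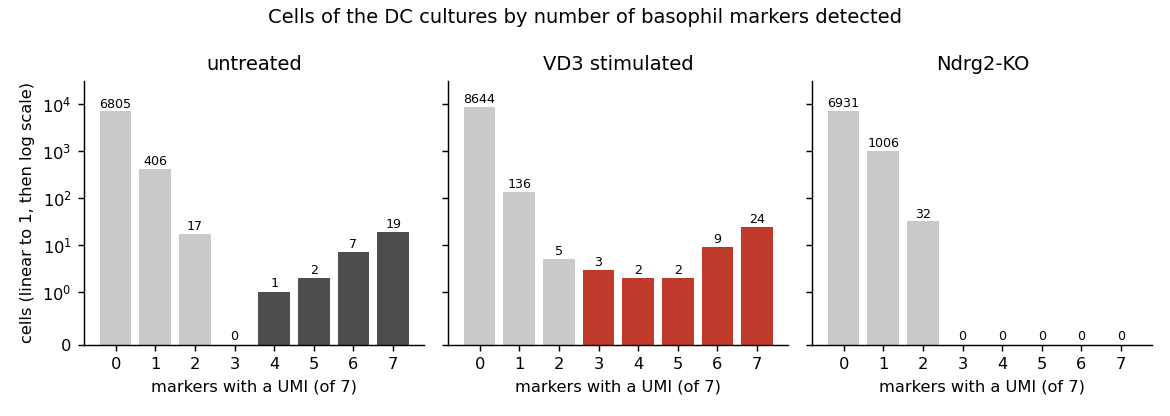
Number of kept cells (linear to 1, then a log axis) by how many of the 7 rule markers they held, for the untreated, VD3 and Ndrg2-KO culture libraries. Counts fall to 17, 5 and 32 cells at 2 markers, and 28 untreated and 35 VD3 cells stand at 5 to 7 markers, where the Ndrg2-KO library has none.

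Prss34, a basophil granule tryptase gene, lies at chr17:25298394-25300165 on the plus strand (GENCODE M21, GRCm38). Members held 3195 of the 3229 Prss34 UMIs in kept cells of the untreated library (98.9%) and 2892 of 2931 in the VD3 library (98.7%), with a median of 91 and 59.5 UMIs per member. All 29 untreated and 34 of 40 VD3 members held it, against 26 of 7228 (0.360%) and 18 of 8785 (0.205%) other cells. The other basophil protease, Mcpt8 (chr14:56082166-56085273, minus strand), followed the same pattern with 3119 of 3155 UMIs in untreated members and 2168 of 2193 in VD3 members. Every untreated member held Mcpt8, at a median of 98 UMIs, and 38 VD3 members did, at a median of 37.5.

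The mast cell and basophil carboxypeptidase Cpa3 (chr3:20215620-20242181, minus strand) was detected in 27 untreated and 39 VD3 members, which held 97.3% and 97.9% of its UMIs. Fcer1a (chr1:173221284-173227214, minus strand) encodes the IgE-binding α chain of FcεRI. It was found in 23 of 29 untreated and 30 of 40 VD3 members, with up to 64 and 32 UMIs in a cell, and in 5 and 1 of the other cells. Ms4a2 (chr19:11615523-11623719, minus strand) encodes the signal-amplifying β chain of the same receptor and was found in 25 and 34 members and in 14 and 2 other cells. Members thus held most of the α and β chain transcripts of both libraries, with 98.7% and 95.6% of their UMIs there in the untreated and 99.6% and 99.0% in the VD3 library. As these genes chose the members, their shares and levels are a description.

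The other 2 markers were less restricted. Gata2 (chr6:88193891-88207032, plus strand), which encodes a transcription factor of progenitors, mast cells and basophils, had 63.2% of its untreated and 74.9% of its VD3 UMIs in members. Cd200r3 (chr16:44943678-44981380, plus strand) encodes an activating receptor of basophils and mast cells and has close relatives in the same gene family, so its reads may be partly shared with them. Members held 302 of 771 Cd200r3 UMIs (39.2%) in the untreated library and 432 of 485 (89.1%) in the VD3 library. The remaining untreated UMIs lay in 267 other cells, with up to 18 in one cell.

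**Figure D2:**
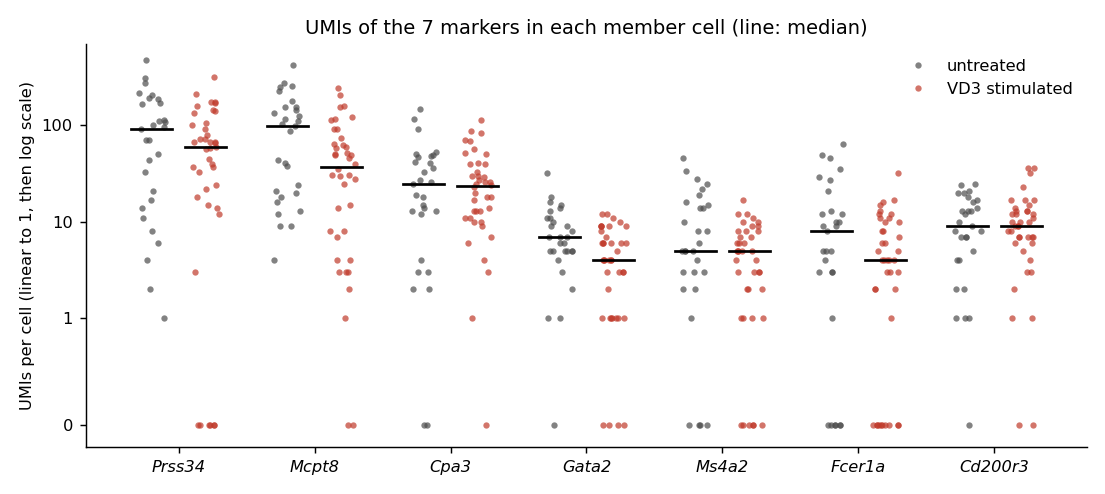
UMIs of each rule marker in each member cell of the untreated and VD3 libraries (linear to 1, then a log axis, 1 point per cell, lines at the median). Prss34 and Mcpt8 reach 483 and 424 UMIs in an untreated cell, and Gata2, Ms4a2 and Fcer1a stay at or below 64.

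The start regions of 4 markers are shown because GATA2 is itself among the markers and its family binds the letters GATA. The letters GATAA and their reverse complement TTATC are in capitals, and each line runs 5′ to 3′ on the strand of the gene over the 250 bases before the RefSeq start (GRCm38.p6). The Ms4a2 region is chr19:11623720-11623969 on the minus strand, Fcer1a chr1:173227230-173227479 on the minus strand, Cpa3 chr3:20242182-20242431 on the minus strand and Prss34 chr17:25298144-25298393 on the plus strand.
Ms4a2: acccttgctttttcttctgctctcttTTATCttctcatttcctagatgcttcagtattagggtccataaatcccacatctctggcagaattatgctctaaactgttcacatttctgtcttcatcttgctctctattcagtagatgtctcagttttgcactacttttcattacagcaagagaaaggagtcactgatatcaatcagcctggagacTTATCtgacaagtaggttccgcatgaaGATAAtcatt
Fcer1a: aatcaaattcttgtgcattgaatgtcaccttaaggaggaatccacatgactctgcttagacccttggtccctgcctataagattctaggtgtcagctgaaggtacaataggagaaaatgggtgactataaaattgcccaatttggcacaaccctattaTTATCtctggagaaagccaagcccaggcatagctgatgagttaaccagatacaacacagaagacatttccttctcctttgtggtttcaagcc
Cpa3: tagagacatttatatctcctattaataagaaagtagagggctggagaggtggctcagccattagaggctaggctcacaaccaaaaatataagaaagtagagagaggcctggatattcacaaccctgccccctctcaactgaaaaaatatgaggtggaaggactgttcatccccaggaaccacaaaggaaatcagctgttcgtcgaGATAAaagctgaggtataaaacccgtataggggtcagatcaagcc
Prss34: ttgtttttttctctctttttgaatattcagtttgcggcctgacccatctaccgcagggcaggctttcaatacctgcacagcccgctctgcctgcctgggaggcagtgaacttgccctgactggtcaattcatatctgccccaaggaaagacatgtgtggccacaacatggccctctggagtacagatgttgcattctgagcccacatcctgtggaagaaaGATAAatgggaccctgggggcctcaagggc
Ms4a2 held 3 matches, whose first letters lay 224, 37 and 10 bases before the start, Fcer1a held 1 at 92 bases, Cpa3 1 at 45 bases and Prss34 1 at 30 bases. Cd200r3 held 2 matches, and no match was found for Mcpt8 or for either start of Gata2. Thus 5 of the 7 markers had a match, which is 5 of their 8 promoters. Of the 32851 promoters in the table, 22.6% had at least 1 match and 4.28% at least 2. A match of letters is a description of the sequence and was not tied to binding by any measurement here.

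Gene levels were compared as CPM, the UMIs of a gene summed over the members of a library per 1000000 UMIs of those members, against the same sum over the other cells of that library. Among 5418 genes with enough UMIs to compare, 109 (2.01%) were at least 4-fold higher in members in both libraries and 18 (0.332%) were at least 4-fold lower in both. The median log2 ratio over those genes was 0.02 in the untreated and 0.10 in the VD3 library. Because members were selected on transcripts of the same cells, these ratios describe the cells and test nothing. In the stricter set 3395 genes could be compared, and 124 were higher and 175 lower by the same limit.

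The genes with the highest ratios outside the 7 markers came from several groups. Cyp11a1, the side-chain cleavage enzyme that starts steroid synthesis, stood at 1021 CPM in untreated members (95% exact Poisson interval 943 to 1103) against 1.14 CPM in other cells, and at 1053 CPM (971 to 1141) against 0.673 in the VD3 library. Its transcripts were found in 28 of 29 and 39 of 40 members, and the stricter set stood at 1672 and 1622 CPM. Hdc, the enzyme that makes histamine, was found in 27 and 34 members, at 322 and 281 CPM against 0.553 and 1.05 in other cells. Grm6, a glutamate receptor gene, reached 88.6 and 109 CPM against 0.0379 and 0.00863 and was found in 20 members of each library. Akr1c18, a steroid dehydrogenase gene, reached 199.6 and 534.7 CPM but lay in only 15 members of each library. Cd55, a complement regulator, stood at 124 and 101 CPM against 0.394 and 0.345, and Alox15, a lipoxygenase of arachidonic acid, at 49.9 and 59.99 against 0.341 and 0.00863.

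Of 22 further basophil genes that were not part of the rule, all had UMIs in members and 17 could be compared, of which 10 were at least 4-fold higher in both libraries and none was at least 4-fold lower. Their median log2 ratio was 2.24 in the untreated and 3.65 in the VD3 library, against the medians of 0.02 and 0.10 over all compared genes. This list was drawn up with earlier results of these data known, so it is a description and not independent evidence. Besides Cyp11a1, Hdc, Grm6 and Alox15, the 10 included the hepatocyte growth factor gene Hgf (log2 ratio 6.58 and 7.66), the interleukin 33 receptor gene Il1rl1 (3.68 and 6.41) and the interleukin 18 receptor subunit Il18rap (2.24 and 4.76). The others were Il6, Osm and the interferon-induced gene Ifitm1. The study's marker lists for its clusters with Prss34 and Mcpt8 hold 6 genes beside the rule markers, and as those lists came from these samples they are not independent. Of the 5 that could be compared, all were at least 4-fold higher, namely Cyp11a1, Hdc, the thrombin receptor gene F2r (7.07 and 6.73), the integrin αIIb gene Itga2b (4.77 and 4.37) and Ctla2a (2.89 and 2.75).

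**Figure D3:**
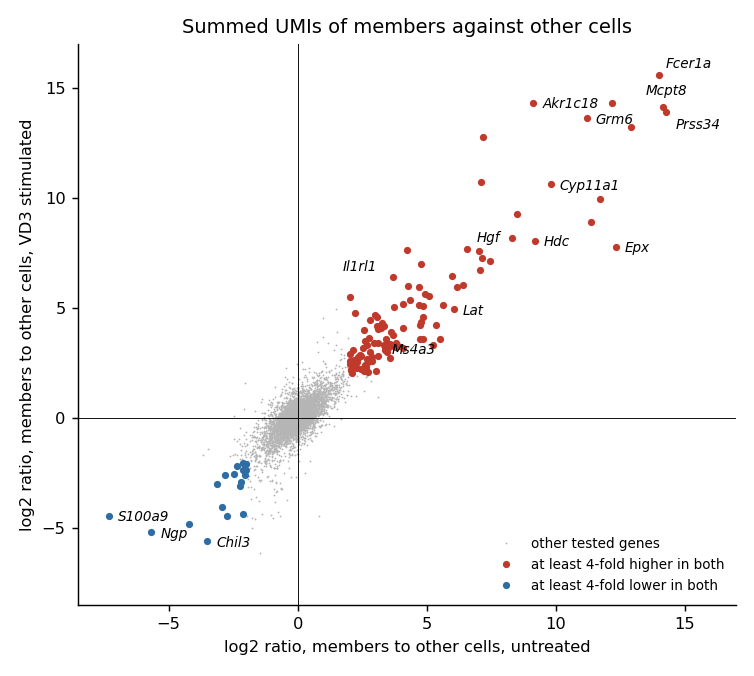
Log2 ratio of member to other-cell CPM in the untreated (x axis) and VD3 library (y axis) for each compared gene, with the 109 higher genes in red, the 18 lower genes in blue and some genes labelled. Fcer1a lies at the upper right with ratios of 13.99 and 15.58, and the neutrophil gene S100a9 at the lower left with -7.31 and -4.45.

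Of 23 genes of FcεRI signalling 20 could be compared, 4 were at least 4-fold higher in both libraries and none was lower, with a median log2 ratio of 0.21 and 0.44. The 4 were Fcer1a and Ms4a2, which the rule used, and the adaptor genes Lat (6.06 and 4.95) and Lat2 (2.21 and 2.38). The common γ chain gene Fcer1g, which other Fc receptors of myeloid cells also use, stood at 1602 and 1570 CPM in members against 1237 and 827 in other cells. The kinase genes Lyn (-0.30 and 0.01), Syk (-0.56 and -0.36) and Fyn (0.20 and -0.30) were within 2-fold of the other cells in both libraries, and Btk (0.98 and 1.15) was a little above.

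Receptors for growth factors showed no common direction. Of 14 compared genes, 2 were at least 4-fold higher, Il1rl1 and Il18rap, and the median log2 ratio was -0.52 and -0.46. Il3ra, the interleukin 3 receptor α chain, had log2 ratios of 1.48 and 1.61, at 78.9 and 95.3 CPM in members, and the thymic stromal lymphopoietin receptor gene Crlf2 stood at log2 0.80 and 1.30. The shared β chain genes Csf2rb and Csf2rb2 lay between -0.56 and 0.16.

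Of 21 cytokine and chemokine genes 17 had UMIs in members and 11 could be compared, of which 3 (Il6, Osm and Hgf) were at least 4-fold higher in both libraries and none lower. The classical basophil cytokines had few UMIs. Il4 had 12 UMIs in 12 untreated members and 24 UMIs in 14 VD3 members, against 1 and 2 UMIs in all other cells of those libraries. Il13 had 1 and 7 UMIs in members and none elsewhere. Neither gene had enough UMIs to enter the comparison with other cells. Il6 had 53 UMIs in 15 untreated and 45 UMIs in 7 VD3 members, and 1 VD3 cell held 46.7% of the latter. The chemokine gene Ccl6 stood at 4403 and 6333 CPM in members, in 28 of 29 and 35 of 40 cells, and at 2589.8 and 1654 CPM in the other cells. Il3, Csf2, Il10 and Areg had 0 UMIs in members of both libraries, and 3 UMIs would be 4.83 CPM in the untreated and 5.29 CPM in the VD3 members.

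Of 7 compared genes of lipid mediators, 2 (Alox5 and Alox15) were at least 4-fold higher in both libraries and none lower. Alox5, the 5-lipoxygenase that starts leukotriene synthesis, stood at 246 and 353 CPM against 28.7 and 21.7, in 27 of 29 and 39 of 40 members. Alox5ap, which presents the substrate to it, had log2 ratios of 1.74 and 2.07. Ltc4s, the enzyme that makes leukotriene C4, stood lower in members at 48.3 and 61.8 CPM against 138 and 148, and in the stricter set it had 4 and 0 UMIs.

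The granule proteoglycan core Srgn, which holds proteases and histamine in granules, was found in every member at 2834 and 3063 CPM against 425 and 729. The granule membrane marker Cd63 was also in every member, at log2 ratios of 1.53 and 1.82. Of 18 compared genes of granules and secretion, 6 were at least 4-fold higher in both libraries, of which 3 were rule markers and the other 3 were Hdc, Srgn and the elastase inhibitor gene Serpinb1a (3.72 and 5.03). Genes of the fusion machinery such as Vamp8 (-0.14 and -0.14), Snap23 (0.68 and 0.60) and Stxbp2 (0.49 and 0.28) stayed within 2-fold of the other cells. The vesicular monoamine transporter gene Slc18a2, which loads histamine, stood at 59.6 and 59.99 CPM in members, with log2 ratios of 7.45 and 7.15.

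Among 23 compared transcription factor genes, 3 were at least 4-fold higher and none lower. These were Gata2, which the rule used, Ikzf2 (3.76 and 3.22), which encodes Helios, and Cebpe (3.45 and 2.97), which drives granulocyte maturation. Cebpe lay in only 6 untreated and 8 VD3 members, with 1 cell holding 43.3% and 36.0% of its UMIs. Cebpa (1.66 and 2.91) and Runx1 (1.47 and 2.02), which act in early myeloid cells, passed 4-fold in the VD3 library and stayed below it in the untreated one. Irf8, which directs monocyte and DC fates, was lower at log2 -1.78 and -1.52, and the stricter set held 3 and 2 of its UMIs.

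Tissue mast cell genes were at or near 0 in the members. Of 12 mast cell genes 5 had any UMI in members, 2 of them could be compared and 1 (the monoamine transporter Slc18a2) was at least 4-fold higher in both libraries. The 12 genes together had 49 UMIs in 18 of 29 untreated members and 47 UMIs in 26 of 40 VD3 members, or 78.9 and 82.9 CPM against 37.2 and 59.8 in the other cells. The tissue mast cell genes Cma1, Mcpt4, Tpsab1, Mcpt1, Mcpt2, Mrgprb1 and Mrgprb2 had 0 UMIs in members. Tpsb2, a mast cell tryptase, had 3 UMIs in 1 untreated member and 1 UMI in 1 VD3 member. Kit, the stem cell factor receptor on which mast cells depend, had 1 UMI in each set of members. In the other cells of the VD3 library Kit stood at 30.8 CPM in 22.4% of cells, with the median depths given above, against 1.89 CPM in 2.93% of the untreated ones.

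Neutrophil transcripts were among the genes lowest in members. S100a9 had 8 UMIs in untreated members, or 12.9 CPM against 2041 in other cells, and 108 CPM against 2348 in VD3 members, where 1 cell held 95.1% of its UMIs. S100a8 stood at 164 and 125 CPM against 3058 and 3577, and 1 cell held 78.4% and 56.3% of its UMIs. Of 6 compared neutrophil genes, 3 (S100a8, S100a9 and Ngp) were at least 4-fold lower in both libraries and none was higher. These are ratios of sums. The median cell held 2.07 UMIs of the whole neutrophil list per 10000 among untreated members against 1.25 among the other cells, and 0.86 against 0.75 in the VD3 library, while single other cells reached 3752 and 3882. Of the 18 lower genes, 10 were also among the 175 lower genes of the stricter set. The list of the 10 lowest also held Chil3, Wfdc21, Fcgrt, Cd14 and Tmem37, as well as Stfa1 and BC100530, 2 similar stefin genes whose reads may be shared.

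Of 12 compared DC and MHC class II genes none passed 4-fold in both libraries, with a median log2 ratio of -1.20 and -1.53. Of 12 compared macrophage and monocyte genes 3 were at least 4-fold lower (Lyz2, Chil3 and Cd14), with a median of -1.51 and -2.65. The 6 untreated members with at least 20 Cd74 UMIs held 67 to 329 each and together 1214 of the 1234 Cd74 UMIs, 924 of 950 Lyz2 UMIs and 2662 of 2686 UMIs of the chemokine gene Ccl5, while no other untreated member held more than 4 Cd74 UMIs. They also held all 109 UMIs of the migratory DC receptor gene Ccr7 and all 125 of the fibronectin gene Fn1. In the VD3 library 8 such members held 23 to 395 Cd74 UMIs each, 1066 of the 1094 in all, and 378 of 392 Ccl5 UMIs, but 182 of 289 Lyz2 UMIs. The stricter set kept 83 of 2307 untreated and 73 of 1969 VD3 UMIs of the DC and MHC class II genes, and 135 of 1985 and 121 of 518 UMIs of the macrophage genes. In the stricter set the summed DC and MHC class II genes had a median of 1.94 UMIs per 10000 in untreated members, with a range from 0 to 21.9, where the other cells had a median of 88.2 and reached 696. In the VD3 library the values were 2.20 (0 to 8.58) against 70.1. Over all members the sum reached 175 and 128 UMIs per 10000. Automatic doublet calling marked 2, 0 and 1 cells of the 3 culture libraries and none of the members. When the 6% of cells with the highest doublet scores were taken instead, 7 of 29 untreated and 3 of 40 VD3 members were among them. Whether the barcodes with Cd74 held 2 cells was not tested.

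**Figure D4:**
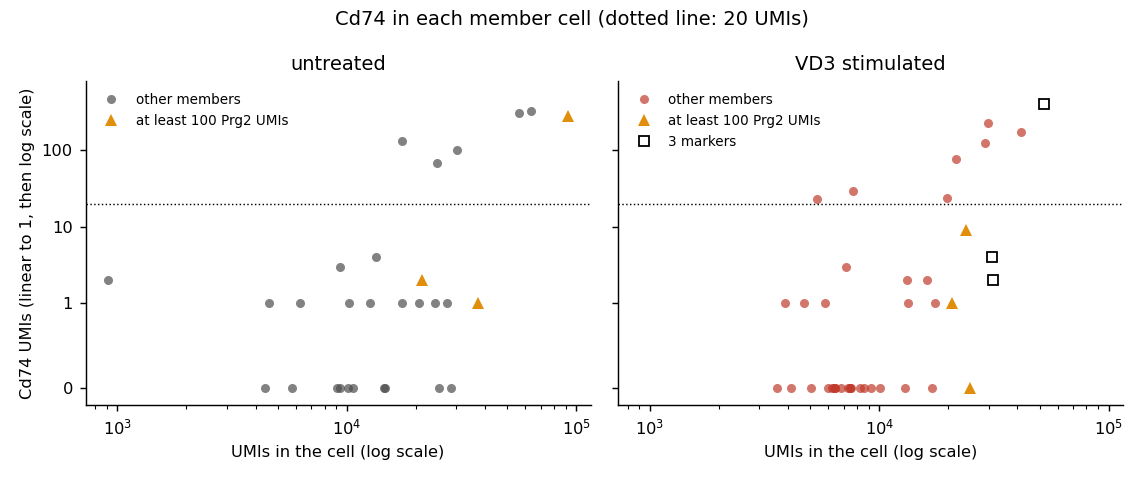
UMIs of Cd74 (y axis, linear to 1, then log) against all UMIs of the cell (x axis, log) for each member, with triangles for members with at least 100 Prg2 UMIs and squares for members with 3 markers. Above the dotted line at 20 UMIs lie 6 untreated and 8 VD3 members, and the members below it hold at most 4 and 9 Cd74 UMIs.

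Lymphocyte genes were nearly undetected, as 1 of 13 (Cd79b, with 6 and 2 UMIs) had any UMI in members. Of 3 compared megakaryocyte and erythroid genes, Itga2b and the haemoglobin gene Hbb-bt were at least 4-fold higher and the platelet factor gene Pf4 was lower in both libraries. The Pf4 UMIs lay in 5 untreated members and none in the stricter untreated set, and the Hbb-bt UMIs lay in 7 untreated and 4 VD3 members.

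A few members held very large amounts of eosinophil granule transcripts. Prg2, which encodes major basic protein, stood at 4808 and 2633 CPM in members against 1.83 and 5.54 in other cells, but its UMIs lay in 4 untreated and 6 VD3 members. In the untreated library 3 members held 788, 1040 and 1108 Prg2 UMIs and 1 held 50. In the VD3 library 3 held 333, 339 and 805, and the others held 13, 1 and 1. All other members held none. The 3 untreated members high in Prg2 also held 99, 143 and 168 UMIs of the related gene Prg3 and 158, 273 and 187 UMIs of the eosinophil peroxidase gene Epx, in the same order of cells. Among the 3 VD3 members high in Prg2, Prg3 had 105, 56 and 88 UMIs and Epx had 0, 19 and 49, again in that order. Grouped by Prg2 after their values had been seen, these 6 cells each held UMIs of Mcpt8 and Cpa3, and 5 of them held Prss34. All 6 also held all 6 of the proliferation transcripts described next, without thinning, as did other deep members. They were deep themselves, with 21249 to 91725 UMIs in the untreated and 20670 to 24799 in the VD3 library. The untreated cell with 788 Prg2 UMIs was also the deepest member and held 281 Cd74 UMIs. Fcer1a had 8, 0 and 0 UMIs in the untreated and 1, 4 and 0 in the VD3 ones. Of the eosinophil surface genes, Siglecf had 4 and 13 UMIs, Ccr3 3 and 1, and Il5ra 1 and 0 in all members together. One other cell in each library held at least 100 Prg2 UMIs (141 and 419), and the Ndrg2-KO library held 13 Prg2 UMIs in all.

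Transcripts of dividing cells were found in many members. A cell was counted when it held at least 3 of the 6 genes Stmn1, Mki67, Top2a, Birc5, Pclaf and Ube2c, which act in mitosis, chromosome structure or DNA replication. At a common depth of 2000 UMIs, 10 of 28 untreated members (35.7%, 18.6 to 55.9) and 12 of 40 VD3 members (30.0%, 16.6 to 46.5) were counted, where the other cells had 16.8% (15.9 to 17.7) and 13.2% (12.4 to 13.9). Without thinning the shares were 69.0% and 50.0% of members and 29.4% and 23.4% of the other cells. All 14 proliferation genes could be compared and none passed 4-fold in both libraries, with median log2 ratios of 1.08 and 1.26.

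Of 6 compared granulocyte-monocyte progenitor genes, 4 were at least 4-fold higher in members of both libraries and none was lower. The cathepsin G gene Ctsg stood at 1512 and 896 CPM against 23.8 and 10.2 and was found in 26 of 29 and 26 of 40 members, and the stricter set stood at 2615 and 1618 CPM. The myeloperoxidase gene Mpo stood at 67.6 and 54.7 CPM in members, in 8 and 15 of them, with log2 ratios of 3.33 and 4.20. Ms4a3, a gene of granulocyte-monocyte progenitors and their progeny, stood at 528 and 129 CPM, and 327 of its 328 untreated and 72 of its 73 VD3 UMIs lay in the members with at least 3 proliferation genes. Srgn was the fourth. The azurophil protease gene Prtn3 did not follow, with log2 ratios of -1.41 and 0.74, and in the VD3 library 1 cell held 77.5% of its UMIs.

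Genes of migration and surface inhibition completed the profile. Of 18 compared migration and adhesion genes, 5 were at least 4-fold higher and none lower, among them Itga2b, F2r, the mucosal integrin gene Itgb7 (3.04 and 2.13) and the sphingosine-phosphate receptor gene S1pr4 (3.38 and 3.24). Of 15 compared inhibitory and activating receptor genes, 1, the rule marker Cd200r3, passed 4-fold in both libraries. Its relative Cd200r4 had log2 ratios of 1.48 and 4.97, and Lilr4b had 0.78 and 2.97. In members the levels were 261 and 191 CPM for Cd200r4 and 285 and 325 CPM for Lilr4b, while other cells had 93.4 and 6.10 for Cd200r4 and 166 and 41.3 for Lilr4b. No gene of the lists of immediate early genes (13 compared) or of apoptosis and survival (13 compared) passed 4-fold in both libraries, and of the Ndrg family, the subject of the study, Ndrg1 alone could be compared (0.04 and 0.32), as Ndrg2 had 2 and 6 UMIs in members.

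Calcitriol was given in the study to change the state of the DCs, and the VD3 stimulated members were compared with the untreated ones to see where these cells differed. Among 4665 genes with at least 30 UMIs in the 2 sets of members together, 126 (2.7%) were at least 2-fold higher and 189 (4.05%) at least 2-fold lower in VD3 members, and the median log2 ratio was -0.02. In the stricter set 2727 genes could be compared, and 55 were higher and 91 lower, of which 18 and 38 were among the 126 and 189. When the cells with the highest 6% of doublet scores were left out, the balance turned to 179 higher and 82 lower. With 1 library per condition the culture and the treatment cannot be told apart.

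None of the 7 rule markers passed 2-fold in either direction. Prss34 stood at 5144 and 5103 CPM in untreated and VD3 members, Mcpt8 at 5022 and 3826, and Cpa3 at 1538 and 2075. In the stricter set the levels were 8435 and 8709 CPM for Prss34, 8669 and 6402 for Mcpt8 and 2653 and 3596 for Cpa3. Cd200r3 had the largest ratio among the 7 at log2 0.65 (0.43 to 0.87), with 486 and 762 CPM, and Fcer1a the lowest at -0.54 (-0.78 to -0.31), with 617 and 423 CPM. In the other cells Cd200r3 went the opposite way, at log2 -2.96 between the libraries.

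The serpin gene Serpinb1a was lower in VD3 members, at 153.5 CPM against 631.1, which is log2 -2.04 (-2.39 to -1.70). It was found in 28 of 29 untreated members, at a median of 6.30 UMIs per 10000 and up to 32.8, and in 24 of 40 VD3 members, at a median of 0.67 and up to 10.8. The ranges of single cells thus overlapped while the medians lay apart. The stricter set gave -1.97, and in the other cells of the libraries the ratio was -3.35. Ms4a3 was lower at log2 -2.04 (-2.42 to -1.67) and -2.48 in the stricter set, and it stayed lower, at 204 CPM against 619, when only members with at least 3 proliferation genes were summed. Ctsg was lower by a smaller step, at -0.75 (-0.91 to -0.60).

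Among the 10 genes with the highest ratio, Ablim1, an actin-binding LIM protein gene, had 13 UMIs in 8 of 29 untreated members and 113 UMIs in 29 of 40 VD3 members, at log2 3.25 (2.42 to 4.21). Dgat1, which makes the last step of triglyceride synthesis, had 23 UMIs in 14 and 96 UMIs in 29 members, at log2 2.19 (1.53 to 2.92). Both stayed over 2-fold in the stricter set, at 3.02 and 1.55, and both were higher in the other cells of the VD3 library as well, at 3.11 and 2.37. Asb2, a ubiquitin ligase subunit gene found in 15 of 40 VD3 members, had a ratio of 2.48, 1.82 in the stricter set and 3.51 in the other cells. Mgst1, a glutathione transferase gene, had 21 and 91 UMIs, the latter in 18 members (2.25), or 3 and 42 UMIs in the stricter set (3.99), and 0.25 in the other cells. The transforming growth factor receptor gene Tgfbr2 had 2.02 and 2.50 in the stricter set. The others of the 10 were Pla2g7 (3.53), H2-Q6 (2.72, a class I gene with near-identical neighbours), Bnip3 (2.20, but -0.0019 with at least 4 markers), the laminin gene Lama5 (2.13) and the oxygen-sensing hydroxylase gene Egln1 (2.07), which lay in 11 to 17 of the 40 VD3 members. In the stricter set the same 5 genes had 9, 2, 7, 13 and 11 UMIs in VD3 members and 0, 1, 4, 5 and 0 in untreated ones.

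Of 19 compared basophil genes outside the rule, 3 were at least 2-fold higher in VD3 members and none lower, namely Osm, Ccl3 and Il4. Oncostatin M, a cytokine of the interleukin 6 family, had 58 UMIs in 18 untreated and 186 UMIs in 18 VD3 members, at log2 1.81 (1.38 to 2.26) and 1.51 in the stricter set. The sum rested on few cells, as 3 VD3 members held 114 of the 186 UMIs, and the median Osm rate per cell went the other way, from 0.48 UMIs per 10000 in untreated to 0 in VD3 members. The chemokine gene Ccl3 had 152 UMIs in 19 and 341 UMIs in 30 members, at 1.30 (1.02 to 1.58) and 1.32, with medians of 1.15 and 3.65 UMIs per 10000. Il4 stood at 1.13 (0.08 to 2.27). In the stricter set 16 could be compared, 2 were higher and 1, Il6 at -1.11, was lower. Osm and Ccl3 were unevenly spread, with up to 24.1 and 77.7 UMIs per 10000 in a VD3 member. Both were also found in a larger share of the other cells of the VD3 library. At the common depth given above, Ccl3 was found in 6.44% of other untreated and 13.3% of other VD3 cells. Osm was found in 2.68% and 4.87% of them. The member shares at that depth were 35.7% and 50% for Ccl3 and 21.4% and 25% for Osm. Whether the differences were particular to members was not tested. Akr1c18 had 124 and 303 UMIs in 15 members of each library, at log2 1.42 (1.12 to 1.73), with medians of 0.33 and 0 UMIs per 10000.

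Ccl3, Osm and Akr1c18 were also summed apart for members below and above the limit of 3 proliferation genes, counted without thinning. Members below 3 proliferation genes held 14.9% of the untreated and 37.7% of the VD3 member UMIs. Among them Ccl3 stood at 1135 CPM in the untreated and 1119.9 CPM in the VD3 library, Osm at 324 and 754 CPM, and Akr1c18 at 897 and 1167 CPM. In members with at least 3 proliferation genes the levels were 88.9 and 289 CPM for Ccl3, 53.0 and 70.8 CPM for Osm and 77.6 and 153 CPM for Akr1c18. The part of proliferating members, whose thinned shares are given above, in these differences was not tested.

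**Figure D5:**
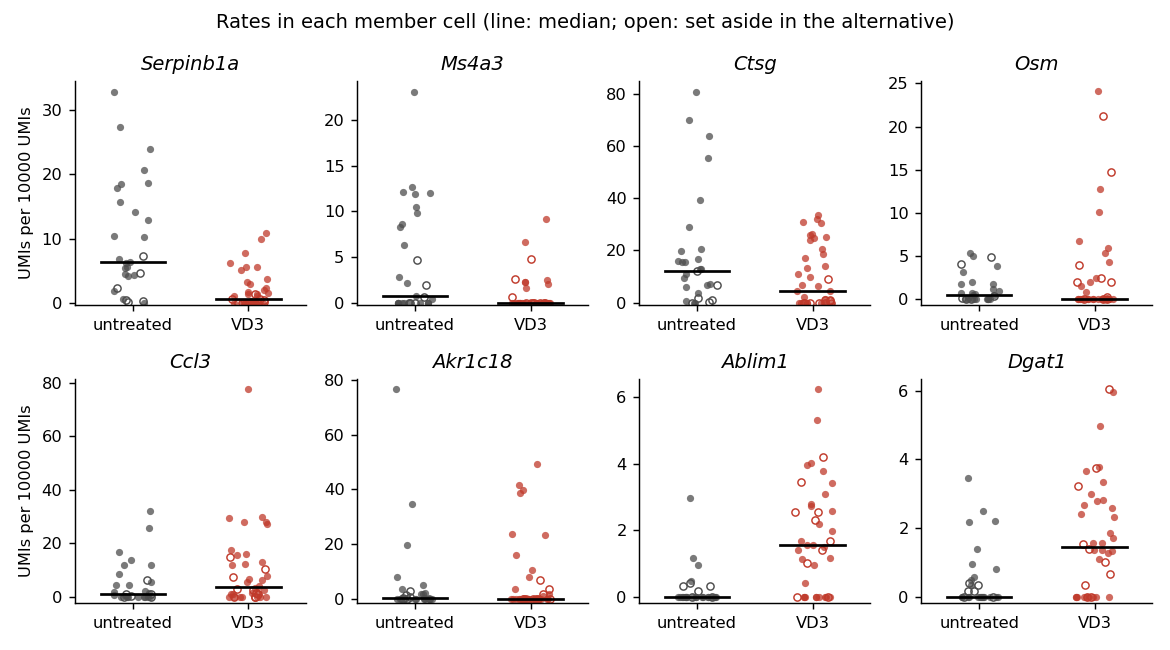
UMIs per 10000 in each untreated and VD3 member cell for 8 genes chosen after their values were seen (open points are the cells left out of the stricter set, lines are medians). Serpinb1a has medians of 6.30 and 0.67, and Ablim1 has medians of 0 and 1.55.

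Differences in DC and macrophage genes between the 2 sets of members moved with the barcodes with Cd74 to different extents. The metalloelastase gene Mmp12 had 394 UMIs in untreated and 13 in VD3 members (-4.79, -2.99 in the stricter set on 9 and 1 UMIs), of which 385 lay in the 6 untreated barcodes with Cd74, and Ccl5 had 2686 and 392 (-2.64, -0.71 in the stricter set). Without the cells with the highest 6% of doublet scores the values were 0.0795 for Mmp12 and 1.33 for Ccl5. The chemokine receptor gene Ccr2 had 148 and 16 UMIs (-3.08, -1.51 in the stricter set). Of 12 compared macrophage genes 10 were at least 2-fold lower and 1, Adgre1, was higher, whereas in the stricter set 4 could be compared, 1 was lower and 1 higher. The rest of the 10 lowest were Nop16 (-2.19), the carbonic anhydrase gene Car2 (-2.14), the prostaglandin synthase gene Ptgs1 (-1.91), 2310039H08Rik (-1.87) and the cytokinesis gene Racgap1 (-1.83). Ptgs1, which had 37 UMIs in 13 untreated and 9 UMIs in 4 VD3 members, was -3.63 in the stricter set on 14 and 1 UMIs.

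Of 11 vitamin D genes 9 had UMIs in members and 5 could be compared, none of them 4-fold apart from the other cells in both libraries. Between the conditions 2 of 5 were at least 2-fold higher in VD3 members, Vdr and Cyp24a1, a direct target of the vitamin D receptor whose enzyme degrades calcitriol. Cyp24a1 had 0 UMIs in untreated members and 178 UMIs in 8 VD3 members, or 314.1 CPM, against 314.8 CPM in the other VD3 cells. The 3 members with 3 markers held 173 of the 178 UMIs, at 41, 52 and 80 each. The 37 VD3 members with at least 4 markers held 5 UMIs, which is 11.1 CPM, and the stricter set held 4 UMIs in 4 cells. At a common depth of 2000 UMIs, 1 of 30 cells of the stricter set held Cyp24a1, where 25.1% of the other VD3 cells did. The receptor gene Vdr had 0 UMIs in the stricter untreated and 2 in the stricter VD3 set, and at the common depth it was found in 8.84% of other untreated and 19.7% of other VD3 cells.

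No cell of the Ndrg2-KO library met the rule, and 5 of the 7 markers had no UMI in it. It had 0 UMIs of Prss34, Mcpt8, Cpa3, Ms4a2 and Fcer1a in 7969 kept cells, which for each gene allows a share of cells with a UMI of up to 0.0463% (exact Clopper-Pearson upper limit). It held 99 UMIs of Gata2 and 1678 of Cd200r3, the latter in 12.3% of its cells, as well as 4 UMIs of Hdc in 3 cells, and no cell had more than 2 of the 7 markers. The knockout, the nucleofection and the culture itself cannot be told apart, as each was present once.

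The same rule found 3, 15 and 3 cells in the control DC wound, the Ndrg2-KO DC wound and the wound under blank hydrogel, and many of these carried mast cell transcripts. The chymase genes Cma1 and Mcpt4 and the tryptase gene Tpsb2 of tissue mast cells had 502, 829 and 463 UMIs in the 3 cells of the control DC wound, of which 1 cell held 413, 728 and 391, and they had 407, 446 and 221 UMIs in 1 of the 3 cells of the blank hydrogel wound. All 3 cells of the control DC wound had more UMIs of these mast cell proteases than of Prss34 and Mcpt8, with at least 10 mast cell protease UMIs in 2 of them. In the blank hydrogel wound 2 of the 3 cells had more of the basophil proteases, but on only 6 Mcpt8 UMIs and no Prss34. Cells of the Ndrg2-KO DC wound fell into 8 with more UMIs of the basophil proteases Prss34 and Mcpt8 and 7 with more of the mast cell proteases. At least 10 basophil protease UMIs were held by 5 of these cells, and at least 10 mast cell protease UMIs by 7. Prss34 had 60 UMIs there, in 3 cells, and 0 in the other 2 wounds, and Kit had 14, 27 and 17 UMIs in the 3 wounds. In the cultures 29 of 29 untreated and 38 of 40 VD3 members had more basophil than mast cell protease UMIs, and the remaining 2 had neither. As Prss34 and Mcpt8 were themselves rule markers, these counts describe the chosen cells of cultures and wounds and test nothing. The wound cells chosen by the rule had medians of 17326, 3146 and 4245 UMIs, and their libraries had been counted with another version of the counting software.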

How the data were processed

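The deposited matrices hold raw UMI counts per gene and barcode, which the authors obtained by running Cell Ranger on 10x Genomics 3′ version 3 libraries (3.1.0 for cultures and 6.0.0 for wounds, per the file headers). The submitters' notes name mm9 and Seurat 3.1.1, while the study's methods name mm10, and gene positions here come from GENCODE M21 (GRCm38) by Ensembl ID. The members and gene lists were chosen with earlier results of these data known.

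UMIs were summed over members and over other cells of each library and scaled to CPM. Genes entered the comparison with other cells when their mean level equalled at least 10 UMIs at member depth in each library, and the comparison of VD3 with untreated members at 30 UMIs over both. A gene with 0 UMIs on one side of a ratio was set to 3 UMIs. Intervals are 95% (exact Poisson for CPM, exact binomial for shares and ratios), and intervals and limits cover counting error only. Conditions were compared without a test, as each was 1 library.

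Named genes were the 7 markers, examples of the lists, the 15 highest and 10 lowest ratios to other cells, the 10 highest and 10 lowest ratios of VD3 to untreated members with UMIs in at least 25% of members where higher (mitochondrial and ribosomal protein genes left out), and the genes the study lists for the cluster. Other named genes were picked after their values were seen. Doublets were scored with Scrublet in scanpy 1.11.5, whose automatic calls were too few to use, so doublets were kept and the highest 6% of scores were left out as an alternative. In all 16 alternatives were tried, 1 of them, the stricter set, chosen after seeing the data. Python 3.11.15, numpy 2.4.6, scipy 1.17.1, pandas 2.3.3 and matplotlib 3.10.9 were used, and the fold calculations were tested on simulated data. The values of 1 gene of the lists are not reported here.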

Additional observations from a re-analysis of the deposited data

Results flagged for a closer look

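In 3 of the named and listed genes, those with at least 2-fold ratios in both and intervals clear of 0, the members and the other cells of the same libraries moved in opposite directions between the untreated and the VD3 library, and the difference was not tested. Cd200r3, described in the report, went opposite ways too but stayed under 2-fold in members. Prtn3 had a log2 ratio of 1.13 in members (0.32 to 1.98) and -1.02 in the other cells, with 77.5% of the VD3 member UMIs in 1 cell, and the stricter set gave -1.18. Epx had -3.06 in members (-3.45 to -2.70), where its UMIs lay in 4 untreated and 2 VD3 cells, and 1.46 in the other cells (0.78 to 2.18). Akr1c18 had 1.42 in members (1.12 to 1.73) and -3.78 in the other cells (-6.11 to -2.15), where it had 47 and 3 UMIs.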

How the results depend on the processing

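No paired analysis was possible because each condition was 1 library. The share of members moved to 0.672% (untreated) and 0.801% (VD3) with under 5% mitochondrial UMIs and to 0.634% (untreated) with at least 2 markers. Genes at least 4-fold higher than in other cells numbered 57 when 30 UMIs were required and 296 at a 2-fold limit. Genes at least 4-fold lower, 18 in the report, numbered 118 with under 5% mitochondrial UMIs, 5 with at least 2 markers, 76 after drawing cells to 2000 UMIs, 101 without the highest doublet scores, 150 by the mean over cells, 35 without the deepest member of each library, 8 when 30 UMIs were required, 246 at 2-fold and 175 in the stricter set.

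Genes higher in VD3 members, 126 in the report, numbered 52 with under 5% mitochondrial UMIs, 67 after drawing to 2000 UMIs, 196 by the mean over cells, 39 with at least 60 UMIs, 19 at 4-fold and 55 in the stricter set. Genes lower in VD3 members, 189 in the report, numbered 79, 106, 70, 36 and 91 under the same settings without the mean over cells, and 474 with at least 2 markers and 82 without the highest doublet scores. With at least 4 markers Bnip3 turned to -0.0019, and without the highest doublet scores Ccl5 turned to 1.33 and Mmp12 to 0.0795. The control DC wound kept 1 cell with at least 4 markers. Recomputed under these settings were 46 single-gene ratios, which do not cover every gene named. Of their values 583 stayed past the 4-fold limit (members against other cells) or within their counting interval (VD3 against untreated), 58 did not and 3 reversed. The cause was not tested. The depth of 29 and 40 members limits genes with few UMIs most, and the number of libraries limits every difference between conditions.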
